A study of Mus musculus with 9 samples.

Results

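The 8 transcription factor genes Nr4a2, Pitx3, Lmx1a, Lmx1b, Foxa1, Foxa2, En1 and En2 specify midbrain dopaminergic neurons in the embryo and stay active in them in the adult. They were taken by symbol from a table of 20591 genes, and all 8 were present and tested. The table comes from RNA-seq of lysate from the substantia nigra, the midbrain region that houses the dopaminergic neurons projecting to the striatum. The mice were C57BL/6, were 12 weeks old at the start, and had all received a sham operation, which is also what the genotype label gives, so no lesion or transgene separates the groups. Of the 9 libraries, 3 came from mice on intermittent fasting for 1 week (3 fasts of 24 hours each), 3 from mice that fasted for 1 day, and 3 from mice fed ad libitum for 1 week. Each fast began 2 hours before lights off, and the ad libitum mice were also handled by daily cage transfer. The labels do not say whether a library stands for 1 animal, so the p-values below measure only the spread between these libraries, which may be technical.

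These factors act partly in sequence. Foxa1 and Foxa2, forkhead proteins of the floor plate, and the LIM-homeodomain proteins Lmx1a and Lmx1b set up the progenitors of the ventral midbrain. En1 and En2, the Engrailed homeodomain proteins, mark the midbrain and the adjoining anterior hindbrain and are needed for the survival of dopaminergic neurons. The orphan nuclear receptor Nr4a2 (Nurr1) and the paired-like homeodomain protein Pitx3 then switch on the genes of dopamine synthesis, release and uptake. None of the 8 is restricted to the nigra: Lmx1b is also found in serotonin neurons, En1 in the anterior raphe, Lmx1a and Foxa1 in the subthalamic and mammillary region, and Nr4a2 in part of the cortex.

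Promoter sequences are shown for En1 and Lmx1a, whose levels passed a test of correlation with a marker list, for Lmx1b, whose level followed that of Lmx1a, and for Foxa1, the only promoter to hold a searched motif. Each line gives the 250 bases before the annotated start, 5′ to 3′ on the gene's strand, from RefSeq on build GRCm38.p6. The counts were made on GRCm39, so these coordinates belong to the RefSeq table alone. Capitals mark the motif match.
En1, chr1:120602237-120602486, plus strand: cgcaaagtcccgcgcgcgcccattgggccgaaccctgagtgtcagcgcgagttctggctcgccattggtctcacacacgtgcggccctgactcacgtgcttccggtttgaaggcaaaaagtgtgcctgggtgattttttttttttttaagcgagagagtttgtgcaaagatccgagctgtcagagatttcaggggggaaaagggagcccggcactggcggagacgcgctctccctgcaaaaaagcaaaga
Lmx1a, chr1:167689308-167689557, plus strand: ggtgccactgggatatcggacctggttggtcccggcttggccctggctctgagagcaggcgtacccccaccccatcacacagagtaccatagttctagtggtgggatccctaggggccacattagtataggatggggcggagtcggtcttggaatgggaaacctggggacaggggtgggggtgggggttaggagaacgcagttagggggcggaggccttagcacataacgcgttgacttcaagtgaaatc
Lmx1b, chr2:33641099-33641348, minus strand: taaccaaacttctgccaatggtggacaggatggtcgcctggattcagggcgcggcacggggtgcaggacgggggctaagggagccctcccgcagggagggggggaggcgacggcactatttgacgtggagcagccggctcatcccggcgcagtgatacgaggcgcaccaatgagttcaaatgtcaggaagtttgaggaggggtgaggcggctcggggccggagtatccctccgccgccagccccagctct
Foxa1, chr12:57546112-57546361, minus strand: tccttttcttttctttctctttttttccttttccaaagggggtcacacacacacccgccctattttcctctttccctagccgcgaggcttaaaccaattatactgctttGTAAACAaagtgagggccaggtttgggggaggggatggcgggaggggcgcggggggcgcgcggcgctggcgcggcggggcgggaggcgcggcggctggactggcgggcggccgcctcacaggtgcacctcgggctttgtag
The table held 9 windows for 7 of the 8 genes. En2 is named only. The motifs searched, on both strands of these 250 bases, were TGTTTAC (a forkhead core), TGTTTGC (a forkhead variant), the homeodomain core TAATTA, the Pitx element TAATCC and the Nr4a element AAGGTCA. The first of them was found once, on the opposite strand of the Foxa1 window (capitals above), 141 bases before the start and overlapping no other motif. Its letters occur in 3.17% of the 32851 windows of that length in the table, and the other 4 motifs occur in 4.3%, 4.84%, 6.25% and 4.08% of them in the order given. A match describes letters and is not a site.

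All 9 libraries held the transcripts of dopaminergic neurons. Slc6a3, the dopamine transporter, lay between 184 and 526 CPM (counts scaled to library size with the TMM factors of edgeR), and Th, which makes the precursor of dopamine, between 76.1 and 296 CPM. Library totals were 36109995 to 54248856 counts. The voom quality weight, which is low for a library that departs from its group over all genes, was 0.507 in 1 week replicate 2 and 0.213 in 1 day replicate 2, and 0.972 to 1.93 in the other 7 libraries. Transcripts of neighbouring tissue differed between libraries as well. Tph2, the serotonin-synthesising enzyme of the raphe, was at 9.12 CPM in 1 week replicate 1, 19.1 CPM in 1 week replicate 3 and 14.4 CPM in ad libitum replicate 3, against 0.369 to 1.21 CPM in the other 6 libraries. Slc17a7, a glutamate transporter of cortical neurons, reached 501 CPM in 1 week replicate 3 (4.31 to 49.1 CPM elsewhere), and Ttr, the leading choroid plexus transcript, 334 CPM in ad libitum replicate 3 (2.61 to 35.5 CPM elsewhere). In whole tissue of this kind, fewer cells of a type and less RNA per cell cannot be told apart.

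None of the 8 factors passed the test in any comparison, by edgeR's quasi-likelihood test with Benjamini-Hochberg adjustment over 20535 genes at 0.05. For 1 week against ad libitum, 0 of 8 passed, beside 0.307% of all genes (63 genes). For 1 day against ad libitum, 0 of 8 passed, beside 0.0584% (12 genes). For 1 week against 1 day, 0 of 8 passed, beside 0% of all genes. DESeq2 and limma's voom with quality weights also called 0 of 8 in each comparison. At an unadjusted p below 0.05 the members numbered 0 for 1 week against ad libitum, 0 for 1 day against ad libitum and 1 (Pitx3) for 1 week against 1 day, beside 11.2%, 9.27% and 5.22% of all genes. The groups overlapped for all 8 factors in every comparison, whereas 22.4%, 18.5% and 7.79% of all genes had groups that did not overlap. The smallest adjusted p of the 8 was 0.786 for 1 week against ad libitum, 0.564 for 1 day against ad libitum and 0.853 for 1 week against 1 day. With so few genes called in the table as a whole, a share of 0 of 8 is near the background and says nothing particular about these factors.

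**Figure D1:**
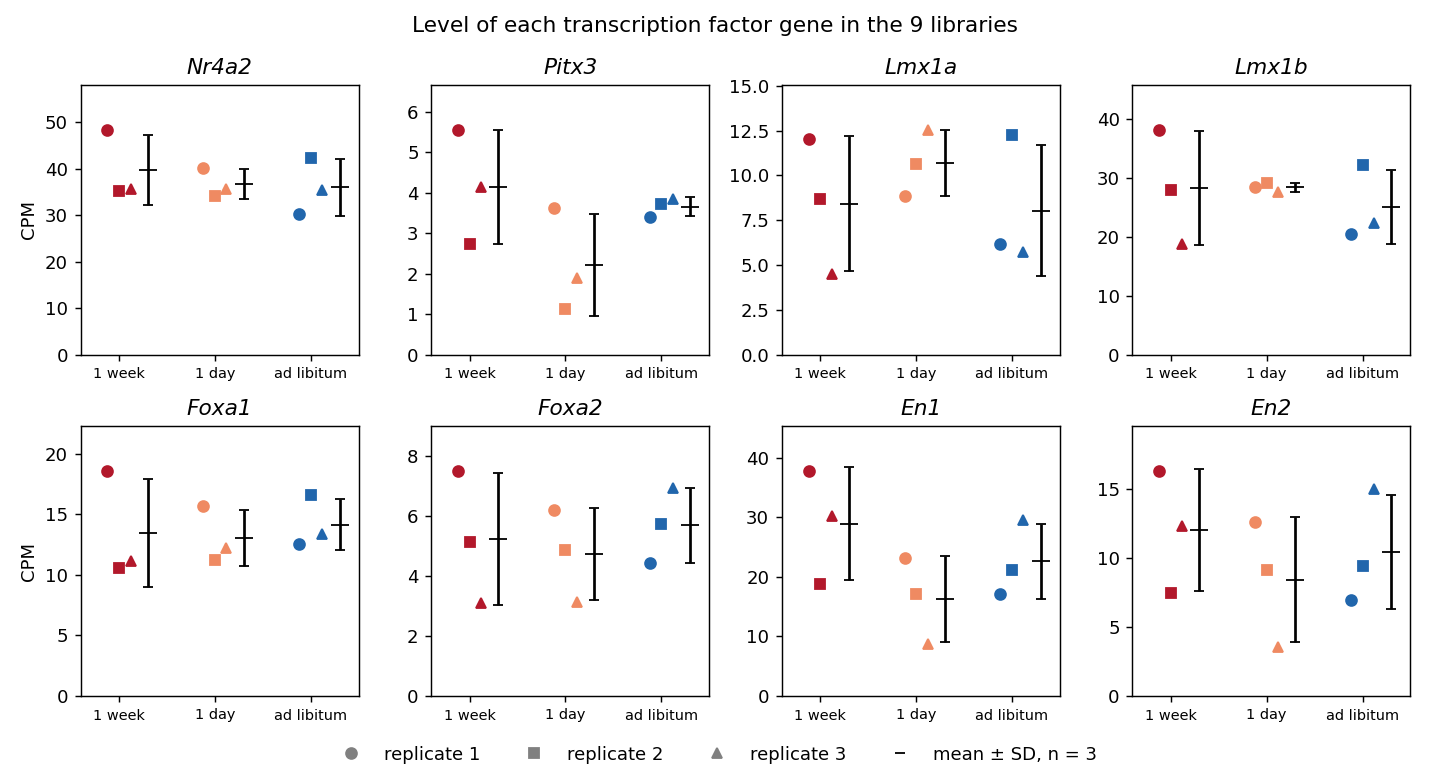
Level of each factor in CPM (vertical axes, from 0) in the 9 libraries, by group from left to right (1 week, 1 day, ad libitum). Symbols give the replicate number, and the bars give mean and SD of 3 libraries. The 3 groups overlap in every panel, and replicate 1 of the 1 week group is the highest library for 7 of the 8 genes.

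Nr4a2 (ENSMUSG00000026826), the nuclear receptor that activates Th and the dopamine transporter, was the steadiest of the 8. It was at 48.4, 35.3 and 35.6 CPM in replicates 1, 2 and 3 of the 1 week group, at 40.3, 34.1 and 35.6 CPM in the 1 day group, and at 30.3, 42.4 and 35.4 CPM in the ad libitum group. The groups lie on top of each other, with 1 high library in the 1 week group. Its log2 fold change was 0.14 (SE 0.16) for 1 week against ad libitum and 0.03 (SE 0.16) for 1 day against ad libitum, with adjusted p of 0.799 and 0.965 by edgeR. The SD of its log2 CPM over the 9 libraries was 0.20, at percentile 35.6 of all genes tested, whose median SD was 0.26. The other 7 factors had an SD above that median.

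Pitx3 (ENSMUSG00000025229), which in the mouse is needed for the survival of nigral dopaminergic neurons, had the largest fold change of the 8 in both comparisons that involve the 1 day group. It was at 5.55, 2.73 and 4.14 CPM in the 1 week group, at 3.62, 1.14 and 1.89 CPM in the 1 day group, and at 3.39, 3.73 and 3.83 CPM in the ad libitum group. The ad libitum libraries sit close together, while 2 of the 3 libraries of the 1 day group lie below every other library. Its mean was 4.14 ± 1.41 CPM after 1 week, 2.21 ± 1.27 CPM after 1 day and 3.65 ± 0.232 CPM with ad libitum food (SD, n = 3 each). The log2 fold change was 0.90 for 1 week against 1 day (SE 0.38, unadjusted p = 0.0406, adjusted p = 0.853 by edgeR). For 1 day against ad libitum it was -0.72 (SE 0.38, adjusted p = 0.564 by edgeR), so neither held after adjustment. The lowest library, 1 day replicate 2, held 44 counts, with an exact 95% Poisson interval of 32.0 to 59.1 that covers counting error only. That library is also the one with the lowest quality weight. Without it the log2 fold change was 0.60 for 1 week against 1 day and -0.40 for 1 day against ad libitum. Without 1 day replicate 1, the highest library of that group, the same values were 1.45 and -1.27, with adjusted p of 0.501 and 0.380 by edgeR.

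The paired LIM-homeodomain genes differed in level but moved together. Lmx1b (ENSMUSG00000038765) was at 38.1, 27.8 and 18.8 CPM in the 1 week group, at 28.4, 29.1 and 27.6 CPM in the 1 day group, and at 20.4, 32.1 and 22.4 CPM in the ad libitum group. The 1 day libraries are nearly equal, and the other groups spread to either side of them. Lmx1a (ENSMUSG00000026686) was at 12.04, 8.70 and 4.51 CPM in the 1 week group, at 8.87, 10.7 and 12.5 CPM in the 1 day group, and at 6.17, 12.2 and 5.72 CPM in the ad libitum group. Its lowest pair of libraries, 1 week replicate 3 and ad libitum replicate 3, come from different groups. Lmx1a had its largest fold change for 1 day against ad libitum (log2 0.41, SE 0.38, adjusted p = 0.692 by edgeR), which was 0.85 without ad libitum replicate 2 and 0.22 without ad libitum replicate 3. Lmx1b for the same comparison gave 0.18 (SE 0.24, adjusted p = 0.780 by edgeR).

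The forkhead genes differed little between groups. Foxa1 (ENSMUSG00000035451) was at 18.6, 10.6 and 11.1 CPM in the 1 week group, at 15.7, 11.2 and 12.2 CPM in the 1 day group, and at 12.5, 16.6 and 13.4 CPM in the ad libitum group. The group means of 13.4, 13.0 and 14.2 CPM for 1 week, 1 day and ad libitum differ by less than the SD of any of the groups. Foxa2 (ENSMUSG00000037025) was at 7.50, 5.13 and 3.10 CPM in the 1 week group, at 6.19, 4.88 and 3.14 CPM in the 1 day group, and at 4.43, 5.73 and 6.93 CPM in the ad libitum group. Its means of 5.24 CPM after 1 week, 4.74 CPM after 1 day and 5.70 CPM with ad libitum food all lie within 1 SD of each other. Every log2 fold change of this pair lay between -0.27 and 0.15, with adjusted p of 0.774 or more by edgeR.

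The Engrailed genes and Pitx3 had the widest spread over the 9 libraries, with an SD of log2 CPM of 0.62 for En1, 0.67 for En2 and 0.67 for Pitx3. En1 (ENSMUSG00000058665) was at 37.8, 18.8 and 30.3 CPM in the 1 week group, at 23.1, 17.1 and 8.65 CPM in the 1 day group, and at 17.2, 21.2 and 29.5 CPM in the ad libitum group. En2 (ENSMUSG00000039095) was at 16.3, 7.44 and 12.3 CPM in the 1 week group, at 12.6, 9.11 and 3.57 CPM in the 1 day group, and at 6.95, 9.43 and 15.0 CPM in the ad libitum group. For both genes 1 week replicate 1 was the highest library and 1 day replicate 3 the lowest, 4.37-fold apart for En1 and 4.56-fold apart for En2. For 1 week against 1 day the log2 fold change of En1 was 0.83 (SE 0.37, unadjusted p = 0.0542, adjusted p = 0.853 by edgeR) and that of En2 was 0.51 (SE 0.47, adjusted p = 0.856 by edgeR). For 1 week against ad libitum En1 gave 0.36 (SE 0.37) and En2 0.20 (SE 0.47). Single libraries moved these values: for 1 week against 1 day En1 was at 0.53 and En2 at 0.15 without 1 day replicate 3, and at 1.17 and 0.93 without 1 day replicate 1. Set against ad libitum, the 1 week values were 0.12 for En1 and -0.081 for En2 without 1 week replicate 1, and 0.61 and 0.57 without ad libitum replicate 3.

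**Figure D2:**
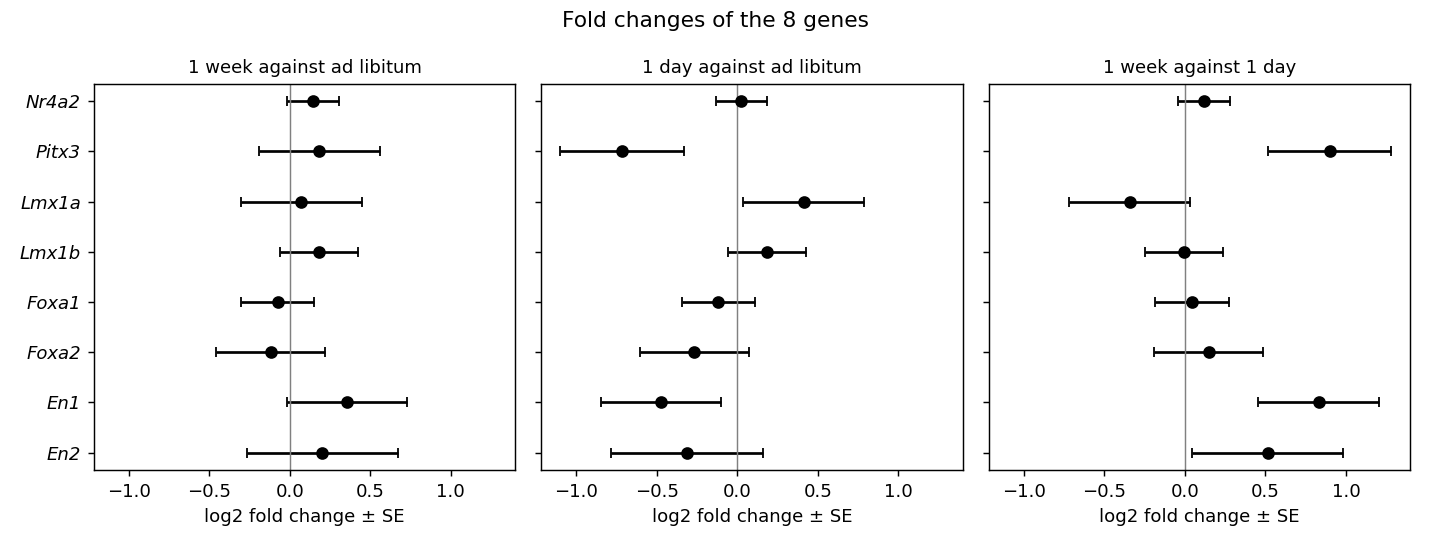
Fold changes of the 8 factors in the 3 comparisons, on the log2 scale with standard errors from edgeR (horizontal axes), each the group named first over the group named after it. The values lie between -0.72 (Pitx3, 1 day against ad libitum) and 0.90 (Pitx3, 1 week against 1 day), and none passed the test.

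As a list, the 8 factors had a median log2 fold change of 0.16 for 1 week against ad libitum (6 higher, 2 lower), -0.19 for 1 day against ad libitum (3 higher, 5 lower) and 0.13 for 1 week against 1 day (6 higher, 2 lower). The median over all genes tested was -0.00129, 0.000415 and -0.000840 in the same order. Any pair of these comparisons shares a group of libraries, so the medians are not independent of each other.

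Levels of different genes can be compared only per length. Per kilobase of the longest annotated transcript, the mean over 9 libraries was 10.5 ± 1.51 CPM per kilobase for Nr4a2, 8.63 ± 3.32 for En1, 5.68 ± 1.25 for Lmx1b and 4.25 ± 0.873 for Foxa1 (SD, n = 9). It was 2.91 ± 1.16 CPM per kilobase for En2, 2.70 ± 0.909 for Lmx1a, 2.45 ± 0.723 for Foxa2 and 2.42 ± 0.936 for Pitx3 (SD, n = 9). The step between Lmx1b and Foxa1 held in 9 of 9 libraries, and those between En1 and Lmx1b and between Foxa1 and En2 in 8 of 9. Nr4a2 lay above En1 in 6 of 9. The last 4 genes could not be ordered, since each lay above the next in only 5 of 9 libraries. With the mean transcript length in place of the longest, only Nr4a2 and Foxa1 kept their rank. Of the 31-base words in the transcripts of each gene, at most 0.775% (Lmx1a) occur in those of another gene, which limits how far reads could be divided among relatives. En1 and En2 share none, Lmx1a and Lmx1b share none, and Foxa1 and Foxa2 share 8.

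Across the 9 libraries the factors did not vary as a block. En1 and En2 were almost proportional: their correlation was r = 0.964 on log2 CPM (exact permutation p = 0.000121, adjusted 0.00340 over 28 pairs), with Spearman's rho of 0.900 (exact p = 0.00203, adjusted 0.0284). Without the 2 libraries farthest from the median of En1, 1 week replicate 1 and 1 day replicate 3, r was 0.877 (exact p = 0.0123). After removal of group means r was 0.996. In counts, En1 was 1.83 to 2.53 times En2 in every library.

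Lmx1a and Lmx1b formed the other closely related pair, with r = 0.904 (exact permutation p = 0.000989, adjusted 0.0139). Spearman's rho was 0.717 (exact p = 0.0369, adjusted 0.172). Without 1 week replicate 3 and ad libitum replicate 3 r was 0.818 (exact p = 0.0298). Nr4a2 and Foxa1 had r = 0.829 (exact permutation p = 0.00411, adjusted 0.0384), with rho of 0.650 (exact p = 0.0666, adjusted 0.213). That relation fell to r = 0.468 (exact p = 0.261) without 1 week replicate 1 and ad libitum replicate 2, so it no longer holds at 0.05 without them. Pitx3 and En1 ranked the libraries nearly alike, with rho of 0.950 (exact p = 0.000353, adjusted 0.00988), although r was 0.721 (exact p = 0.0344, adjusted 0.193), and 0.864 without 1 day replicates 2 and 3 (exact p = 0.00774). Foxa1 and Foxa2 had r = 0.668 (exact p = 0.0525, adjusted 0.210) and rho of 0.717 (exact p = 0.0369, adjusted 0.172), with r of 0.506 without 1 week replicate 1 and ad libitum replicate 2 (exact p = 0.247).

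**Figure D3:**
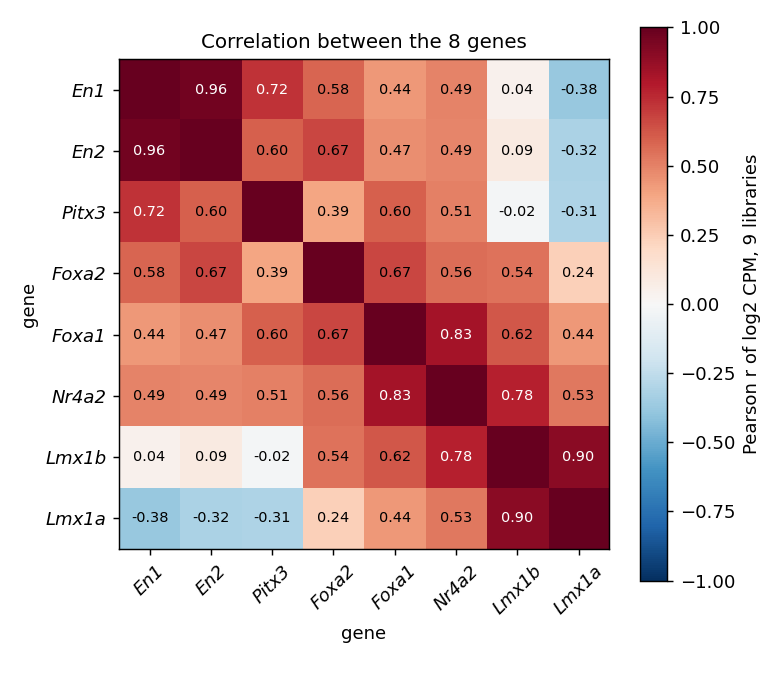
Pearson correlation of log2 CPM between the 8 factors over the 9 libraries (rows and columns are genes, colour and number give r). The pairs En1 with En2 (0.96) and Lmx1a with Lmx1b (0.90) are the highest, and Lmx1a against En1 is at -0.38.

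These pairs did not follow each other. Lmx1a and En1 had r = -0.376 (exact permutation p = 0.326, adjusted 0.415) and rho of -0.400 (exact p = 0.291, adjusted 0.388), and r was -0.0125 without 1 week replicate 3 and ad libitum replicate 3 (exact p = 0.975). The count of En1 relative to Lmx1a was 3.14, 2.17 and 6.72 in the 1 week group, 2.60, 1.61 and 0.689 in the 1 day group, and 2.78, 1.73 and 5.17 in the ad libitum group. The ratio was highest in 1 week replicate 3 and ad libitum replicate 3 and lowest in 1 day replicate 3, and all groups overlapped.

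The level of each factor was set beside 4 marker lists: 20 genes of the dopaminergic phenotype, 7 of subthalamic and mammillary neurons, 10 of GABA neurons of the ventral midbrain and 6 of thalamic neurons. Of these 32 relations, 3 passed a threshold of 0.05 after Benjamini-Hochberg adjustment of the Pearson p-values. No relation with the GABA or thalamic list passed, at an adjusted p of 0.149 or more. The strongest with the GABA list were En1 (r = 0.717, exact permutation p = 0.0342), En2 (0.731, p = 0.0279) and Lmx1a (-0.723, p = 0.0246). The strongest with the thalamic list was Nr4a2 (r = -0.741, exact permutation p = 0.0216). En1 followed the dopaminergic list with r = 0.936 (exact permutation p = 0.000502, adjusted 0.00802) and rho of 0.833 (exact p = 0.00827, adjusted 0.0661). En2 did so with r = 0.931 (exact permutation p = 0.000424, adjusted 0.00802) and rho of 0.883 (exact p = 0.00308, adjusted 0.0492). Without 1 week replicate 1 and 1 day replicate 3, the libraries at the ends of that list, r was 0.701 for En1 (exact p = 0.0772) and 0.757 for En2 (exact p = 0.0448). So the relation of En1 no longer holds at 0.05 without them. Within groups, after removal of the group means, r was 0.935 and 0.928. Nr4a2 and Pitx3, the direct activators of dopaminergic genes, had r of 0.466 (exact p = 0.204, adjusted 0.362) and 0.576 (exact p = 0.112, adjusted 0.327) with that list. Their rho was 0.500 (exact p = 0.178, adjusted 0.365) for Nr4a2 and 0.817 (exact p = 0.0108, adjusted 0.0689) for Pitx3. Without the same 2 libraries r was 0.127 for Nr4a2 (exact p = 0.809) and 0.224 for Pitx3 (exact p = 0.558).

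Lmx1a instead followed the subthalamic and mammillary list, with r = 0.861 (exact permutation p = 0.00295, adjusted 0.0315) and rho of 0.917 (exact p = 0.00131, adjusted 0.0420). That list includes Foxb1, a mammillary factor, and Slc17a6, a glutamate transporter. The mean log2 CPM of the list, used for r, was 4.32, 3.51 and 1.99 in the 1 week group. It was 4.14, 3.52 and 4.79 in the 1 day group, and 3.91, 4.45 and 2.46 in the ad libitum group. The summed level was 343, 320 and 105 CPM in the 1 week group and 325, 401 and 450 CPM in the 1 day group. It was 307, 373 and 223 CPM in the ad libitum group. Slc17a6 alone, at 82.5 to 351 CPM, made up most of that sum in every library. In 1 day replicate 2 the sum was high but the mean was not. The libraries lowest by either measure, 1 week replicate 3 and ad libitum replicate 3, are those with the lowest Lmx1a. Without them r was 0.539 (exact p = 0.210), so the relation rests on those libraries. Foxb1 was at 1.46 and 2.92 CPM there and at 7.53 to 29.7 CPM in the other 7. After removal of group means r was 0.855. Fitted with this list as a covariate, which was chosen after the data were seen, the log2 fold change of Lmx1a for 1 day against ad libitum was 0.20 (SE 0.23, adjusted p = 0.736 by edgeR), against 0.41 without it.

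**Figure D4:**
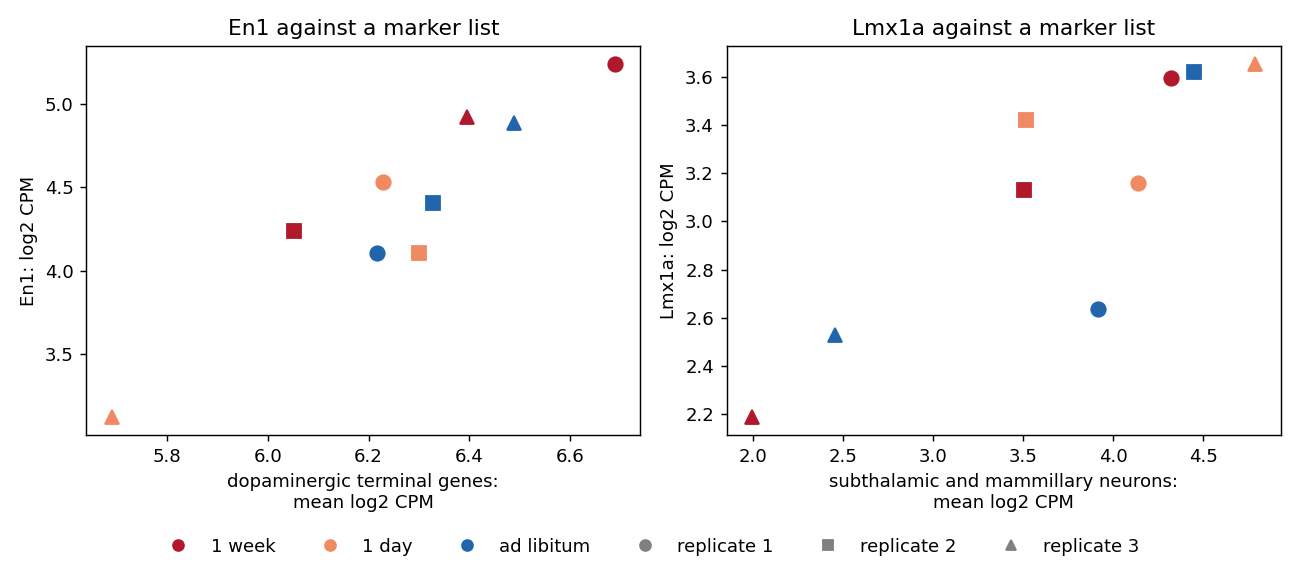
En1 against the mean level of 20 dopaminergic genes (left) and Lmx1a against the mean level of 7 subthalamic and mammillary genes (right), all as log2 CPM, 1 point per library, coloured by group. The points rise together at left from 1 day replicate 3 to 1 week replicate 1, and at right the lowest pair of points are 1 week replicate 3 and ad libitum replicate 3.

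The highest libraries of En1 also held transcripts of the raphe. The libraries with the highest En1, at 37.8, 30.3 and 29.5 CPM, are the 3 libraries with Tph2 above 5 CPM. They also have the highest Slc6a3, at 526, 447 and 448 CPM, and the share of raphe and of dopaminergic tissue in these levels was not tested. En2 was at 16.3, 12.3 and 15.0 CPM in them, but at 12.6 CPM in 1 day replicate 1, where Tph2 was at 0.956 CPM. All 6 serotonin markers listed were in the table, and their summed level was 57.7, 42.9 and 69.8 CPM in the 1 week group, 41.6, 46.8 and 39.8 CPM in the 1 day group, and 48.7, 34.4 and 75.1 CPM in the ad libitum group. Maob, which astrocytes also express, made up 20.9 to 34.9 CPM of it in every library, and Gata3, which is also on the GABA list, 4.15 to 24.5 CPM. Slc6a4, the serotonin transporter, was at 4.72, 11.8 and 8.32 CPM in those 3 libraries and at 0.0231 to 0.129 CPM in the rest. Because the libraries fall into 2 clusters by these markers, no correlation over all 9 is given. Within the 6 libraries with Tph2 at or below 1.21 CPM, chosen after the data were seen, En1 had r = 0.878 with the dopaminergic list (exact permutation p = 0.0778) and rho of 0.486 (exact p = 0.356), and En2 had r = 0.881 (exact p = 0.0375) and rho of 0.771 (exact p = 0.103), so the relation of En1 did not pass there. Fitted with the serotonin list as a covariate, which was chosen after the data were seen, the log2 fold change of En1 for 1 week against 1 day was 0.32 (SE 0.36, adjusted p = 1.00 by edgeR), against 0.83 without it. With the log2 summed CPM of Th, Slc6a3, Slc18a2 and Ddc as covariate instead, it was 0.22. Tph2 was above 5 CPM in 1 week replicates 1 and 3 and in no 1 day library, so the serotonin covariate shares part of that contrast. Lmx1b, itself a factor of serotonin neurons, was at 38.1, 18.8 and 22.4 CPM in the 3 libraries with Tph2 above 5 CPM, and so was highest in the first of them and among its lowest in the others. Of 10 markers of cerebellum and hindbrain, 7 were in the table. Hoxb3, a marker of hindbrain position, was at 7.74 CPM in 1 week replicate 3, 1.73 CPM in ad libitum replicate 3, 0.144 CPM in 1 week replicate 1, 0.0258 CPM in 1 day replicate 2 and at 0 in the other 5.

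To set the factors against the amount of dopaminergic transcript, each was divided by the summed CPM of Th, Slc6a3, Slc18a2 (the vesicular monoamine transporter) and Ddc (the enzyme that completes dopamine synthesis). The sum was 1282, 749 and 1054 CPM in the 1 week group, 789, 984 and 456 CPM in the 1 day group, and 771, 825 and 1016 CPM in the ad libitum group. Per 1000 CPM of these, En1 was at 29.5, 25.2 and 28.7 CPM in the 1 week group, 29.3, 17.4 and 18.9 CPM in the 1 day group, and 22.3, 25.7 and 29.1 CPM in the ad libitum group. Its range over the libraries was thus 1.69-fold, against 4.37-fold in CPM. The low end is 1 day replicate 2, where the genes of the sum did not move alike. Ddc was at 394 CPM there, its highest level, and Th at 88.5 CPM, lower only in 1 day replicate 3 (76.1 CPM). Ratios in that library therefore depend on the gene used as the scale. The sum was highest, at 1282, 1054 and 1016 CPM, in the libraries with Tph2 above 5 CPM. The part of raphe tissue in the sum was not tested. The SD of the log2 value, taken here on both scales without a prior count, was 0.29 per dopaminergic transcript and 0.62 in CPM for En1, and 0.34 and 0.68 for En2. For Pitx3 it was 0.63 and 0.68, and for Foxa2 0.42 and 0.46.

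For the other 4 factors the spread was wider on that scale: 0.39 per dopaminergic transcript and 0.20 in CPM for Nr4a2, 0.43 and 0.28 for Foxa1, 0.51 and 0.32 for Lmx1b, and 0.78 and 0.54 for Lmx1a. The sum itself ran from 456 to 1282 CPM, whereas Nr4a2 ran only from 30.3 to 48.4 CPM. A ratio to a sum that varies so much more than the gene must itself vary more than the gene. The widening for Nr4a2 was thus fixed by arithmetic, and the spread of the sum enters the other ratios too. Lmx1a per 1000 CPM was at 9.39, 11.6 and 4.28 CPM in the 1 week group, 11.2, 10.8 and 27.5 CPM in the 1 day group, and 8.01, 14.8 and 5.63 CPM in the ad libitum group. The high value belongs to 1 day replicate 3, the library with the least dopaminergic transcript. Pitx3 per 1000 CPM lay between 3.64 and 4.58 CPM in 8 of the 9 libraries. It was at 1.15 CPM in 1 day replicate 2, where Pitx3 itself was at its lowest, 1.14 CPM. Ddc was also high and Th low in that library. No group difference in these ratios passed an exact two-sided permutation test, with p of 0.3 to 1 over the 24 tests, in a design of 3 against 3 that cannot go below 0.1.

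**Figure D5:**
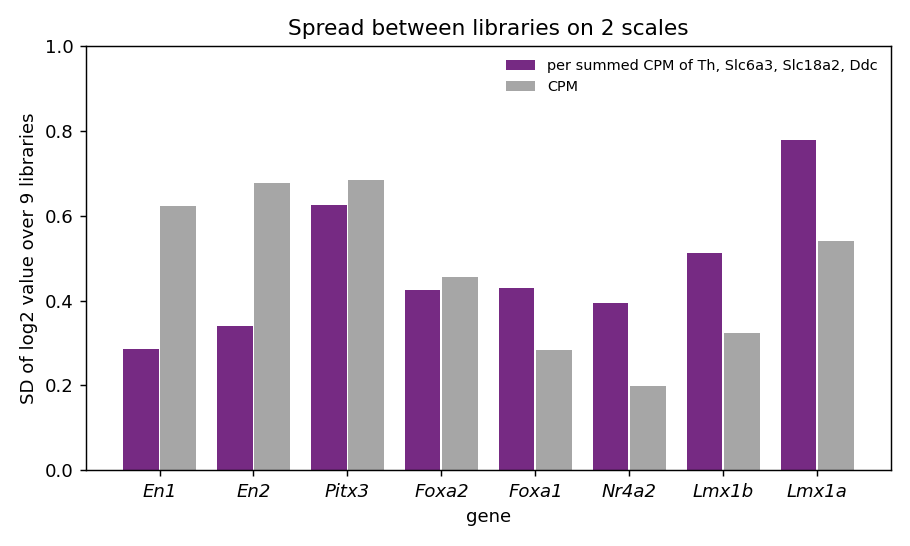
SD of the log2 value over the 9 libraries for each factor, per summed CPM of Th, Slc6a3, Slc18a2 and Ddc (purple) and in CPM (grey). The bars of En1 and En2 are shorter on the dopaminergic scale (0.29 and 0.34), and those of Nr4a2, Foxa1, Lmx1a and Lmx1b are taller. Purple bars also carry the spread of the sum itself, which by arithmetic makes that of Nr4a2 taller.

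Of the 20 dopaminergic genes listed, 0 passed in each comparison by edgeR, DESeq2 and voom. At an unadjusted p below 0.05 the list held 0 genes for 1 week against ad libitum, 1 for 1 day against ad libitum and 2 for 1 week against 1 day. Its median log2 fold change was 0.05 for 1 week against ad libitum (13 higher, 7 lower), -0.24 for 1 day against ad libitum (4 higher, 16 lower) and 0.27 for 1 week against 1 day (18 higher, 2 lower). Th, a target of Nr4a2 and Pitx3, was at 208 ± 89.3 CPM after 1 week, 109 ± 46.4 CPM after 1 day and 181 ± 23.9 CPM with ad libitum food (SD, n = 3 each). Its log2 fold change was 0.94 for 1 week against 1 day (SE 0.36, unadjusted p = 0.0293, adjusted p = 0.853 by edgeR). Drd2, the dopamine autoreceptor, gave -0.48 for 1 day against ad libitum (SE 0.21, unadjusted p = 0.0466, adjusted p = 0.533 by edgeR). Slc10a4, a vesicular protein of monoamine neurons, was at 39.3, 27.9 and 21.8 CPM in the 1 day group, below all ad libitum libraries at 39.7, 42.9 and 53.8 CPM, and gave -0.62 on the log2 scale (SE 0.28, adjusted p = 0.542 by edgeR). Slc6a3 gave -0.49 in the same comparison (SE 0.28, adjusted p = 0.570 by edgeR), and its groups also did not overlap. The serotonin and subthalamic markers above differed between the same libraries, and their part in these values was not tested.

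Among 20 other transcription factors of midbrain patterning and subtype, 0 passed by edgeR in each comparison. At an unadjusted p below 0.05 they numbered 2 for 1 week against ad libitum, 1 for 1 day against ad libitum and 2 for 1 week against 1 day. The median of their log2 fold changes was 0.03, -0.11 and 0.00 in that order. Nkx2-2, a homeodomain factor of the ventral neural tube and of oligodendrocyte precursors, had fasted groups that both lay below the ad libitum group. It was at 10.6, 13.0 and 9.06 CPM in the 1 week group and at 12.3, 10.8 and 11.6 CPM in the 1 day group, against 16.6, 18.7 and 16.8 CPM in the ad libitum group. Its log2 fold change was -0.68 for 1 week (SE 0.14, adjusted p = 0.103 by edgeR) and -0.59 for 1 day (SE 0.14, adjusted p = 0.303 by edgeR), both against ad libitum. DESeq2 called it in both of these comparisons, voom for 1 week against ad libitum, and edgeR in neither. Markers of mature oligodendrocytes moved with it: of 10 listed, all in the table, 8 were lower for 1 week and 9 for 1 day against ad libitum, with a median log2 fold change of -0.38 and -0.39. By edgeR 2 of them fell for 1 week (Trf and Ugt8a) and 0 for 1 day, where 6 had an unadjusted p below 0.05, while DESeq2 called Mag, Opalin, Trf and Ugt8a in both comparisons and voom called these 4 for 1 week and 3 of them for 1 day. Their summed level was 12386, 10777 and 11910 CPM in the 1 week group and 11715, 12064 and 10221 CPM in the 1 day group, against 12432, 12195 and 14850 CPM in the ad libitum group, and their part in the values of Nkx2-2 was not tested. Pax5, a partner of Engrailed at the midbrain-hindbrain boundary, was at 29.1, 10.9 and 34.1 CPM in the 1 week group, 19.2, 12.004 and 1.29 CPM in the 1 day group, and 12.8, 12.8 and 30.9 CPM in the ad libitum group. Its 3 highest libraries and its lowest are those of En1.

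Of 18 partners and relatives of the factors, 16 were tested and 0 passed in each comparison by edgeR, DESeq2 and voom. At an unadjusted p below 0.05 they numbered 1 for 1 week against ad libitum, 1 for 1 day against ad libitum and 2 for 1 week against 1 day, and the median of their log2 fold changes was 0.10, 0.02 and 0.05. Nr4a1, the relative of Nr4a2 that is induced by neuronal activity, was at 10.3, 12.9 and 16.9 CPM in the 1 week group, 21.3, 9.78 and 23.3 CPM in the 1 day group, and 12.2, 11.8 and 7.36 CPM in the ad libitum group. Its log2 fold change for 1 day against ad libitum was 0.80 (SE 0.33, unadjusted p = 0.0367, adjusted p = 0.528 by edgeR), while that of Nr4a2 was 0.03. Nr4a3, the other relative, was at 26.4 CPM in 1 week replicate 3 and at 2.86 to 7.38 CPM in the other 8 libraries. Isl1, a LIM-homeodomain relative of the Lmx1 genes, gave a log2 fold change of -2.57 for 1 week against 1 day (SE 0.85, unadjusted p = 0.0151, adjusted p = 0.853 by edgeR). It was at 0.505, 1.17 and 0.231 CPM in the 1 week group, below all of the 1 day libraries at 2.29, 1.47 and 7.38 CPM.

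Of 13 floor plate and isthmus signalling genes, 11 were tested and 0 passed by edgeR, DESeq2 or voom in each comparison. Unadjusted p was below 0.05 for 1 gene in 1 week against ad libitum, 2 in 1 day against ad libitum and 1 in 1 week against 1 day, and the median of their log2 fold changes was -0.04, -0.06 and 0.06. Gli1, a target of Sonic hedgehog, the signal that induces the Foxa genes, gave 0.59 for 1 day against ad libitum on the log2 scale (SE 0.24, adjusted p = 0.524 by edgeR). Lef1, an effector of Wnt signalling, gave -0.63 (SE 0.25, adjusted p = 0.525 by edgeR). Of 14 immediate early genes, the list to which Nr4a1 and Nr4a3 also belong, 0 passed by edgeR, although 5 had an unadjusted p below 0.05 for 1 week against ad libitum, 10 for 1 day against ad libitum and 2 for 1 week against 1 day. Their median log2 fold change was 0.45, 0.78 and -0.43 in that order. For 1 day against ad libitum Btg2 gave 0.95 (SE 0.16, adjusted p = 0.0860 by edgeR) and Fos 1.76 (SE 0.45, adjusted p = 0.356 by edgeR). DESeq2 called these 2 genes in that comparison, voom called Btg2, and neither tool called Nr4a1, Nr4a2 or Nr4a3. Neither called a gene of the list in the other comparisons.

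The genes most like each factor, by Pearson correlation of log2 CPM over the 9 libraries among 13932 named genes of at least 1 CPM, are given as a description. For En1 they were Pax8 (r = 0.981), Slc39a4 (0.978) and Abcc3 (0.966), and for En2 Pax8 (0.981), Tap2 (0.970) and Mill2 (0.967). Pax8, a paired-box factor of the Pax5 family, was at 2.72, 0.600 and 2.24 CPM in the 1 week group, 1.56, 0.723 and 0.0692 CPM in the 1 day group, and 0.678, 0.897 and 2.19 CPM in the ad libitum group. For Lmx1a they were Pam (0.955), Sod1 (0.950) and Adcyap1 (0.945), a neuropeptide gene. For Lmx1b they were Eef2 (0.981), Ebf2 (0.953) and Lmx1a itself (0.904). For Nr4a2 they were P2ry14 (0.949), Flt4 (0.921) and Casz1 (0.917), and for Foxa1 Spsb4 (0.962), Lrrc14b (0.934) and Flt4 (0.922). For Pitx3 they were Fhl3 (0.979), Nhsl1 (0.974) and C1qc (0.961), a complement gene of microglia. For Foxa2 they were Sash1 (0.880), Tmem177 (0.860) and Hey1 (0.853). With Spearman's correlation 6 of these 24 names remained. The 5 genes most like the mean of the 8 standardised levels were Flt4 (0.943), Casz1 (0.917), Spsb4 (0.911), Lrrc14b (0.882) and P2ry14 (0.881). That mean was highest in 1 week replicate 1, at 1.401, and lowest in 1 day replicate 3, at -0.77.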

How the data were processed

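RNA was polyA-selected and libraries were made with a directional kit, per the labels' protocols. Gene-level estimated counts for the 9 libraries were deposited as 1 table. The submitters' processing notes name Salmon, DESeq2 1.40.2 and the builds GRCm39 and mm39, and no source used here gives Salmon's version or the annotation. The deposited values are whole numbers, so no rounding was needed. In R 4.3.3, edgeR 4.0.16 fitted a quasi-likelihood model with TMM factors, filterByExpr (minimum count 10, minimum total 15) and robust dispersion to all 9 libraries. Levels are CPM, and log2 CPM has a prior count of 2. Standard errors were derived from the F statistics. DESeq2 1.42.0 and voom with quality weights of limma 3.58.1 were alternatives. The fits were tested on simulated data. Correlations and ratios were tested by exact two-sided permutation of libraries. The mean standardised level is the mean over the 8 genes of their z-scored log2 CPM.

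The members, lists and tests were chosen with earlier results of these data known. The genes named are the 8 members, up to 4 genes of each list with the smallest p in the comparison described, Th, Slc6a3, Slc18a2, Ddc, Nr4a1 and Nr4a3, the 2 most abundant genes of each marker list described, the 3 genes most like each member and the 5 most like their mean. Tph2, Slc6a4, Hoxb3, Foxb1, Pax5 and 4 oligodendrocyte genes were named after their values were seen. Groups and replicate numbers were taken from the titles. Transcript lengths come from GENCODE annotation of GRCm38, a different build from that of the counts. The values of 1 marker gene are not reported here.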

Additional observations from a re-analysis of the deposited data

How the results depend on the processing

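None of the 8 factors was called in any comparison under any of 20 alternatives each, of which 2, the subthalamic and serotonin covariates, were chosen after the data were seen. The smallest adjusted p was 0.473 for 1 week against ad libitum (Foxa1 without 1 week replicate 1, edgeR), 0.380 for 1 day against ad libitum (Pitx3 without 1 day replicate 1) and 0.431 for 1 week against 1 day (Pitx3 without 1 week replicate 2). Of 480 alternative fold changes of the members, 437 kept their direction and 43 reversed, and the cause was not tested.

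The number of genes called over the whole table was 63 for 1 week against ad libitum, and 456 by DESeq2, 218 by voom, 155 with only the 6 libraries compared, 37 with the subthalamic covariate, 27 with the serotonin covariate and 8 to 121 on leaving out 1 library. It was 12 for 1 day against ad libitum, and 181 by DESeq2, 57 by voom, 26 with 6 libraries, 2 with the dopaminergic covariate, 6 with the serotonin covariate, 50 without both replicates of low quality weight and 0 to 22 on leaving out 1 library. It was 0 for 1 week against 1 day, and 3 by DESeq2, 1 with the subthalamic covariate and 0 to 3 on leaving out 1 library (3 without 1 week replicate 1). Counts fell to between 8 and 11 for 1 week and to 0 for 1 day when any ad libitum library was left out. They also fell to 22 and 17 without 1 week replicates 2 and 3, and to 2 without 1 day replicate 1 or 3. They rose to 96 without 1 week replicate 1 and to 22 without 1 day replicate 2. Fewer libraries also lower the power, and its part in these falls was not tested. With the replicate number as a block, 32, 2 and 0 genes were called for 1 week against ad libitum, 1 day against ad libitum and 1 week against 1 day, and 0 members. Deviations of same-numbered libraries from their group means correlated at -0.243 to 0.411 over 16266 genes. Differently numbered libraries were not compared, so these values cannot show whether the numbers pair the libraries.

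On the log2 scale, reversals for 1 week against ad libitum were Foxa1 by voom (0.062) and without both low-weight replicates (0.082), and En2 with the dopaminergic (-0.15) and serotonin (-0.082) covariates. For 1 day against ad libitum they were En2 with those covariates (0.077 and 0.035) and Nr4a2 with the subthalamic one (-0.037). For 1 week against 1 day they were Lmx1b by voom (0.032), with a filter of 1 CPM in 6 libraries (0.0041), without the low-weight replicates (0.035) and with the subthalamic (0.18) and serotonin (0.16) covariates. Foxa1, Foxa2 and En2 reversed there with the dopaminergic covariate (-0.13, -0.20 and -0.23), and En2 and Lmx1a with the serotonin one (-0.12 and 0.091). With Slc6a3 alone as the dopaminergic scale, the log2 ratio for 1 week against ad libitum turned to 0.11 for Nr4a2, 0.089 for Pitx3, 0.0090 for Lmx1a, 0.12 for Lmx1b and 0.17 for En2, and for 1 day against ad libitum to 0.23 for Foxa2 and 0.11 for En2.

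Leaving out 1 library, the fold change for 1 week against ad libitum ran from -0.023 to 0.28 for Nr4a2, -0.088 to 0.42 for Pitx3, -0.28 to 0.50 for Lmx1a, -0.097 to 0.41 for Lmx1b, -0.38 to 0.080 for Foxa1, -0.47 to 0.15 for Foxa2 and -0.081 to 0.57 for En2. For 1 day against ad libitum it ran from -0.085 to 0.16 for Nr4a2, -0.27 to 0.010 for Foxa1, -0.73 to 0.059 for En2, -0.81 to -0.16 for En1, 0.059 to 0.41 for Lmx1b and -0.51 to -0.035 for Foxa2. For 1 week against 1 day it ran from -0.049 to 0.20 for Nr4a2, -0.28 to 0.22 for Lmx1b, -0.26 to 0.20 for Foxa1, -0.21 to 0.42 for Foxa2 and -0.70 to -0.041 for Lmx1a. The ratio to dopaminergic transcript ran, for 1 week against ad libitum, from -0.21 to 0.083 for Nr4a2, -0.49 to 0.26 for Lmx1a, -0.30 to 0.23 for Lmx1b and -0.19 to 0.17 for En2. For 1 day against ad libitum it ran from -0.95 to 0.046 for Pitx3, -0.11 to 0.50 for Foxa1, -0.15 to 0.18 for Foxa2 and -0.43 to 0.081 for En2, and for 1 week against 1 day from -0.14 to 0.86 for Pitx3 and -0.094 to 0.42 for En2. In both of these, leaving out any library but 1 day replicate 2 kept the direction for Pitx3.

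The order of levels per kilobase kept 2 of 8 ranks with mean transcript length and 5 of 8 in the ad libitum libraries alone, and 6 of the 24 most similar genes remained with Spearman's correlation. In the 6 libraries with Tph2 below 5 CPM, the correlation with the subthalamic list turned to 0.264 for Pitx3 and -0.414 for Foxa2. It fell from 0.861 to 0.509 for Lmx1a (exact permutation p = 0.300) and from 0.697 to 0.182 for Lmx1b (exact permutation p = 0.775). Depth limits Pitx3 most, at 44 counts in its lowest library.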
